A study of Rattus norvegicus with 20 samples.

Results

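Itgb8 (ENSRNOG00000006569) encodes the integrin subunit β8, and Chst11 (ENSRNOG00000008885) encodes a carbohydrate sulfotransferase. Both genes were measured by RNA-Seq in 20 samples of cultured rat epithelial cells from 5 tissues, before and after transplantation into skin. These 2 genes, of 32494 genes counted and of 13302 genes that passed the filter on low counts, were selected on their low levels in the cells of tracheal origin. Those levels are therefore given below as a description, without a test. The change of each gene between the rounds was not used to select the pair, although the levels of both rounds had been seen, and was tested. These changes, and their differences between tissues, are made of the same levels. The p-values that involve trachea are therefore not independent of the selection. Both genes were also on the study's lists of genes that differ from whisker cells in these samples. Differences and shares that involve whisker are thus not independent of that choice.

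The cells came from Sprague-Dawley rats that constitutively express EGFP. Bladder (dome) cells were taken at postnatal age PN201, tracheal and vaginal cells at PN200, thymic epithelial cells at PN137 and whisker follicle cells at PN57. They were grown on irradiated mouse 3T3-J2 fibroblasts and sorted on EGFP, either before transplantation or after recovery from grafts on the back of nude mice. Each of the 10 groups had 2 samples. The whisker cells were clone 7 before and subclone 14 after transplantation, so that group stands for a single clone. The thymic cells before transplantation were named clone 9 in one label and bulk in another, and the recovered ones were numbered 907, both from a frozen stock. The other groups were bulk cultures. Neither tissue nor age can be told apart from the single source of each culture, and the labels do not say whether the samples of a group were separate cultures. The p-values therefore measure the spread between the samples within groups, which may be technical. In the main fit this spread was estimated for each gene over all 10 groups together.

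Integrin β8 pairs with the αv subunit at the cell surface. The αvβ8 receptor binds the latency peptide that holds TGF-β inactive in the matrix, and this binding makes the cytokine available to its receptors on the same or a neighbouring cell. Chst11 resides in the Golgi and places a sulfate at the 4-O position of N-acetylgalactosamine in chondroitin chains, which are carried by proteoglycans of the matrix and the cell surface. In mice, loss of Chst11 disturbs cartilage, a tissue rich in chondroitin sulfate.

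The sequence just upstream of each gene is printed because it shows how differently the starts of the genes are composed, while their levels in trachea were alike in being low. Both are RefSeq promoters of the GRCr8 build, 250 bases before the annotated start, on the minus strand, read 5′ to 3′. Itgb8 lies at chr6:146351246-146351495 and Chst11 at chr7:22630442-22630691. Capitals mark the GC box GGGCGG on either strand.
Itgb8: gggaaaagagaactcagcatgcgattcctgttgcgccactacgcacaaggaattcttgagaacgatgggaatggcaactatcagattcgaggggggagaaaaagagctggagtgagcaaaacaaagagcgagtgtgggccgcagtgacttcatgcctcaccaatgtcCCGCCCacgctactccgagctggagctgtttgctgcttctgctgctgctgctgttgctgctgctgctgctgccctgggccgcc
Chst11: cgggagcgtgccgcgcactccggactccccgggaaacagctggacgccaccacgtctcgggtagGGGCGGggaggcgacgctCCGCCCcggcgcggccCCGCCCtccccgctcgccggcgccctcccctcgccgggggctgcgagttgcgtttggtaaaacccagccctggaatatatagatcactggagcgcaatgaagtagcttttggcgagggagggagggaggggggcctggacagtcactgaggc
Of 33469 promoters of this length, 30.5% held the GC box, which Itgb8 held at 1 place and Chst11 at 3. The box of Itgb8 began 83 bases before the start, and those of Chst11 began 186, 168 and 152 bases before it. The GC content was 56.4% for Itgb8 and 70.4% for Chst11, against a median of 51.2% over all promoters, and 92.3% of promoters had a lower GC content than Chst11. The window of Chst11 held 27 CG pairs and that of Itgb8 held 11, against a median of 5. Neither window held the TATA box TATAAA, which was found in 12.9% of promoters, searched on both strands. The SMAD box CAGAC, a short motif found in 42.9% of promoters, was absent from both as well. So was the TCF/LEF element CTTTGAT, found in 3.15%. These matches describe letters only, and the starts used in these cells were not measured.

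Between 20723083 and 29824855 reads per sample fell on genes. Levels are given as CPM, the read count scaled to a common library size with TMM factors. CPM do not correct for gene length, so the levels of Itgb8 and Chst11 are compared between tissues and never with each other. Of the 7 tracheal markers listed only Krt8 was paired with an ID here, and this simple-epithelium keratin was high in bladder cells too (1678 CPM, against 1121 CPM in trachea, before transplantation), so the tracheal label could not be checked against defining markers. The epithelial adhesion genes Cdh1 and Epcam had means of at least 814 and 145 CPM in every group. Col17a1, a hemidesmosome collagen of basal cells and the third basal marker paired of 9 listed, had 360 CPM in bladder, 745 CPM in trachea and 5145 CPM in whisker before transplantation, and 2349, 1034 and 4911 CPM after it, so that trachea was lowest after. The recovered vaginal cells went against their label in part. The oestrogen receptor Esr1 was at 18.9 CPM in vaginal cells before and 0.725 CPM after transplantation, the mucosal keratin Krt4 at 652 and 15.3 CPM, and Tfap2b, a transcription factor gene at 34.1 and 48.5 CPM in whisker cells and at most 0.0769 CPM in bladder, tracheal and thymic cells, at 0.0413 and 8.28 CPM. Nfasc, the other whisker marker paired of 7 listed, did not rise with Tfap2b. It was at 0.501 and 0.530 CPM in vaginal cells, against 36.3 and 44.9 CPM in whisker cells. Krt4 was not particular to vagina, with 380 CPM in trachea before and 939 CPM in thymus after transplantation. Isl1, listed for thymus, was kept in vaginal cells, at 7.84 and 5.49 CPM, against at most 0.0230 CPM in whisker cells. The 3 fibroblast markers paired of 8 listed (Col1a1, Col3a1 and Dcn, none of them at 0) summed to between 189 and 265 CPM in every bladder and tracheal sample before transplantation and to between 19.4 and 44.9 CPM in every other sample. In bulk samples, fewer cells of a type and less RNA per cell cannot be told apart.

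Before transplantation, Itgb8 was high in whisker cells and low elsewhere, and trachea shared the lowest place with thymus. The tracheal samples had 1.08 and 1.25 CPM, from 28 and 31 reads. The thymic samples had 0.714 and 2.28 CPM, from 18 and 55 reads, and so lay on either side of the tracheal ones. The label of a gene low in trachea thus did not hold for Itgb8 against every tissue in this round. Bladder samples had 2.39 and 3.23 CPM, and vaginal samples had 9.48 and 6.34 CPM. Whisker samples stood apart at 42.4 and 41.1 CPM. The order from the lowest mean was trachea, thymus, bladder, vagina and whisker, and trachea with thymus was the only pair of neighbours whose ranges overlapped, although thymus and bladder were separated by only 0.111 CPM.

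After transplantation, Itgb8 had the same order of tissues, with trachea now alone at the bottom. The tracheal samples had 2.82 and 2.59 CPM, from 60 and 71 reads. The nearest samples were thymic, at 11.6 and 13.5 CPM, and they overlapped with bladder at 13.9 and 13.5 CPM. Vaginal samples had 19.98 and 18.5 CPM and whisker samples had 32.2 and 34.8 CPM. The lowest sample of another tissue was 4.10-fold above the highest tracheal sample. Among all genes that passed the filter, both tracheal samples lay below all 8 others for 8.00% before and 13.1% after transplantation, and this held in both rounds for 3.51%. Since these levels chose the pair, nothing is read from those shares.

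Chst11 was lowest in trachea in both rounds. Before transplantation the tracheal samples had 3.00 and 2.495 CPM, from 78 and 62 reads, and the vaginal samples came next at 5.89 and 4.56 CPM. Thymic samples had 9.96 and 13.3 CPM. Bladder samples, at 31.0 and 28.9 CPM, were close to whisker samples at 33.4 and 34.4 CPM. No 2 neighbours in this order overlapped, and bladder and whisker, the closest pair relative to their level, differed by 1.13-fold in their means.

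After transplantation the tracheal samples fell to 1.46 and 1.28 CPM of Chst11, from 31 and 35 reads. All 8 other samples lay between 13.3 and 24.2 CPM. Vaginal samples had 13.3 and 13.8 CPM, bladder samples 19.1 and 18.4 CPM, whisker samples 22.8 and 17.3 CPM and thymic samples 23.6 and 24.2 CPM. Bladder and whisker overlapped, and thymus lay 0.770 CPM above the higher whisker sample. The lowest sample of another tissue, a vaginal one, was 9.15-fold above the highest tracheal sample.

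**Figure D1:**
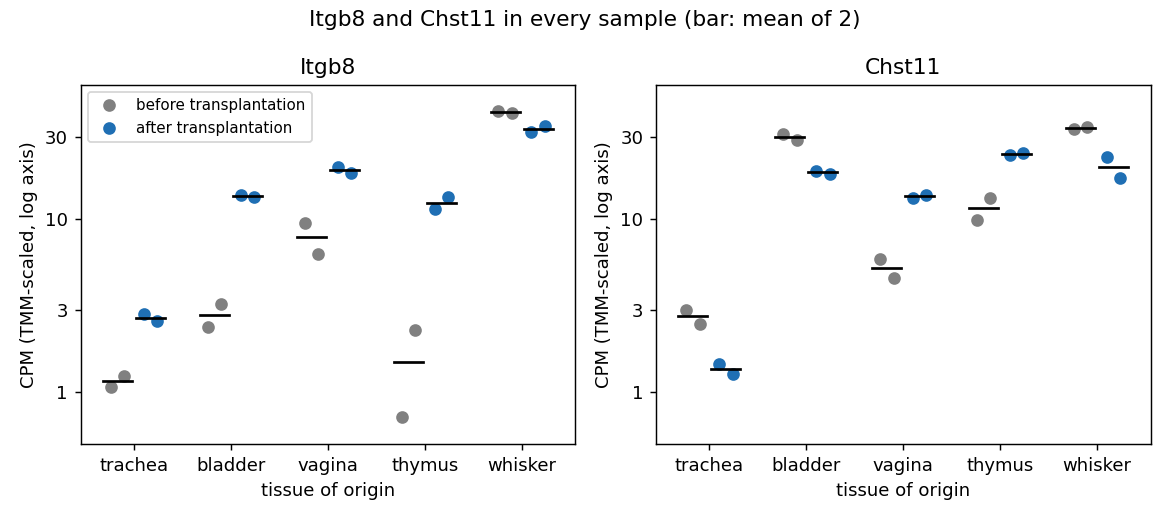
Level of Itgb8 (left) and Chst11 (right) in CPM on a log axis, by tissue of origin, with each of the 20 samples as a point and the mean of 2 samples as a bar, grey before and blue after transplantation. Tracheal samples are the lowest in every panel and round except Itgb8 before transplantation, where a thymic sample at 0.714 CPM lies below both.

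Set against the mean of the 4 other tissues on the log2 scale, Itgb8 in trachea was lower by a difference of -2.31 (SE 0.351) before and -2.75 (SE 0.246) after transplantation. The corresponding difference for Chst11 was -2.51 (SE 0.200) before and -3.76 (SE 0.267) after, equal to 5.70-fold and 13.6-fold lower. Whisker cells carried much of the distance for Itgb8 before transplantation. Without whisker in the reference, the difference of Itgb8 was -1.37 before and -2.46 after, and that of Chst11 was -2.14 and -3.73. Without vagina, whose recovered cells went in part against their label, the differences were -2.17 and -2.73 for Itgb8 and -3.04 and -3.91 for Chst11.

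Measured as a share of the whisker level, Itgb8 in all other tissues and Chst11 in vagina and thymus came closer to whisker cells after transplantation. Chst11 in trachea and bladder kept about the same share. Of the whisker mean in the same round, Itgb8 in bladder made up 6.74% before and 40.8% after transplantation. In thymus it made up 3.59% and 37.4%, and in vagina 19.0% and 57.4%. In trachea it made up 2.79% and 8.06%. For Chst11 the shares were 15.4% and 67.6% in vagina, 34.3% and 119% in thymus and 88.5% and 93.4% in bladder, where both whisker and bladder were lower after than before. In trachea the share was 8.12% before and 6.80% after. Among the 4 tissues other than trachea, the highest mean of Chst11 was 6.48 times the lowest before and 1.76 times after transplantation, and for Itgb8 this ratio was 27.9 before and 2.68 after.

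The comparison of recovered with transplanted cells asks how far the cells of each tissue changed between the rounds. Passage, reculture, the clone of the whisker cells and the stock of the thymic cells differ between the rounds too and cannot be told apart from the stay in skin. The comparison was made in a single limma voom fit of all 13302 genes and 20 samples, with p-values adjusted by Benjamini-Hochberg over all genes of a comparison, and a gene was called at an adjusted p under 0.05 and a change of at least 2-fold. Itgb8 rose in all tissues other than whisker. The largest of these changes was in thymus, at 3.29 on the log2 scale (SE 0.347, limma adjusted p = 1.1e-06), where 8.49% of all genes were called as risen. In bladder it rose by 2.30 (SE 0.266, limma adjusted p = 1.6e-06), with 10.1% of genes risen. In vagina it rose by 1.29 (SE 0.186, limma adjusted p = 4.4e-05), with 4.25% risen. In all of these tissues both recovered samples lay above both transplanted ones. The thymic samples before transplantation differed 3.19-fold between themselves in CPM, and the thymic change was 4.09 without the second of them and 2.44 without the first. A limma fit of only a tissue's own samples gave Itgb8 an adjusted p of 0.0068 in thymus, 0.00062 in bladder and 0.00017 in vagina. In trachea and whisker such fits gave 0.001 and 0.031, the latter at under 2-fold.

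In trachea, Itgb8 rose by 1.20 (SE 0.410, limma adjusted p = 0.027), from 1.16 ± 0.121 to 2.70 ± 0.161 CPM (SD, n = 2), where 4.39% of genes were called as risen. All 4 samples were needed for this limma call. Leaving out any 1 of them leaves 1 sample in a group, and limma then gave changes between 1.09 and 1.304 that were not called. With all 4 samples the adjusted p was 0.011 in edgeR and 0.00069 in DESeq2. Of 6 leukocyte markers listed, Cd68 and Cd74 were paired, and neither was at 0. In trachea Cd68 had 11.7 CPM before and 58.5 CPM after transplantation and Cd74 had 13.6 and 5.48 CPM, and their sum ran from 23.7 to 26.8 CPM before and from 59.7 to 68.4 CPM after. In bladder the sum ran from 38.3 to 64.6 CPM before and from 62.2 to 64.99 CPM after. Cd68 went there from 14.0 to 54.0 CPM and Cd74 from 37.4 to 9.58 CPM. In vagina the means of the sum were 62.6 and 19.8 CPM, with Cd68 going from 61.4 to 15.7 CPM and Cd74 from 1.195 to 4.10 CPM. The means of the sum in thymus were 31.5 and 30.9 CPM. Cd68 and Cd74 thus moved in opposite directions in trachea, bladder and vagina, so their sum is not read as an amount of leukocytes. The part of such cells in the change of Itgb8 was not tested. In whisker cells Itgb8 had 41.7 ± 0.935 CPM before and 33.5 ± 1.84 CPM after (SD, n = 2). This difference of -0.31 (SE 0.135, limma adjusted p = 0.10) was not called, beside 2.15% of genes risen and 3.83% fallen in whisker.

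Chst11 moved in different directions in different tissues. It rose in vagina by 1.37 (SE 0.179, limma adjusted p = 1.5e-05) and in thymus by 1.06 (SE 0.137, limma adjusted p = 9.8e-06). The thymic change was 0.84, under 2-fold, without sample 1 before transplantation. In trachea Chst11 fell by 1.01 (SE 0.326, limma adjusted p = 0.021), from 2.75 ± 0.357 to 1.37 ± 0.127 CPM (SD, n = 2), where 8.04% of all genes were called as fallen. This limma call was lost without tracheal sample 1 before transplantation (change -0.88) and without sample 1 (-1.10) or sample 2 (-0.90) after it. Each of these fits leaves 1 sample in a group. With all tracheal samples the adjusted p was 0.0026 in edgeR and 0.00034 in DESeq2. In bladder the change was -0.68 (SE 0.125, limma adjusted p = 0.00021) and in whisker -0.77 (SE 0.122, limma adjusted p = 0.00021), both under 2-fold and so not called, although both recovered samples lay below both transplanted ones. The share of genes called as risen was 4.25% in vagina and 8.49% in thymus, and the share called as fallen was 11.0% in bladder and 3.83% in whisker. Chst11 had an adjusted p of 0.0087 in thymus and 5.6e-05 in vagina in a limma fit of only that tissue's samples. In trachea, bladder and whisker such limma fits gave 0.0026, 0.0029 and 0.0045. The fibroblast markers fell along with Chst11 in trachea and in bladder, from a mean sum of 261 to 38.3 CPM and from 217 to 26.3 CPM. Before transplantation Chst11 was at 2.75 CPM in trachea and 30.0 CPM in bladder. The part of fibroblasts in these levels and changes was not tested.

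**Figure D2:**
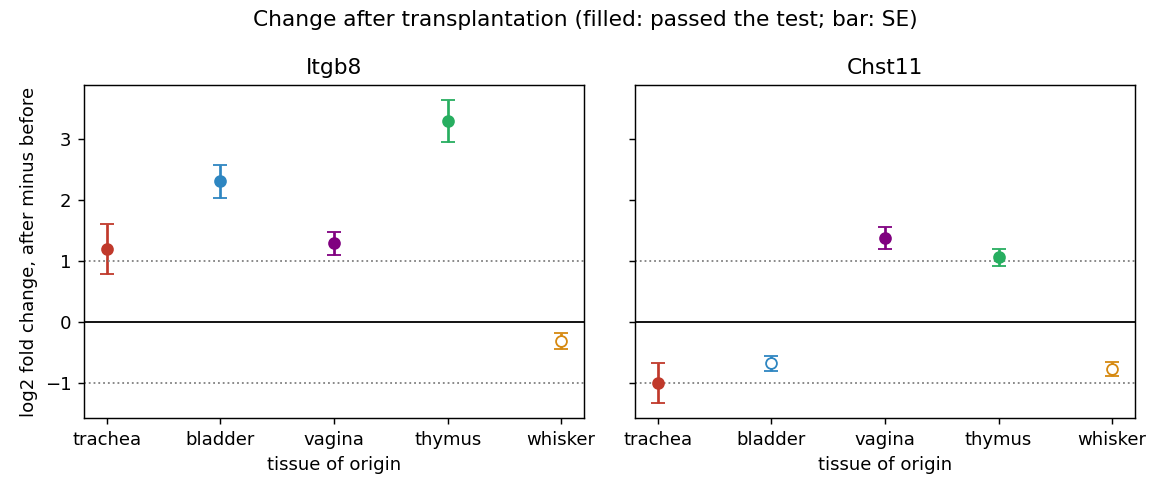
Change of Itgb8 (left) and Chst11 (right) after transplantation as log2 fold change of recovered against transplanted cells, with the standard error as bars, by tissue. Filled points passed the limma test at 2-fold or more (dotted lines at 1 and -1), and Chst11 lies below 0 in trachea, bladder and whisker and above 0 in vagina and thymus.

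The changes were then compared between tissues, as a difference of differences in the same fit. Those with trachea equal its distance from the other tissue after transplantation minus that before, and so use the levels that chose the pair. For Itgb8 the rise in trachea was smaller than that in thymus by 2.09 on the log2 scale, a difference of -2.09 (SE 0.537, limma adjusted p = 0.0055), where 17.5% of all genes differed in either direction. Its size depended on the thymic samples before transplantation, with -1.25 (limma adjusted p = 0.040) without the first and -2.90 (limma adjusted p = 0.00071) without the second. Against bladder the difference of -1.10 (SE 0.489, limma adjusted p = 0.10) was not called, beside 12.6% of genes. DESeq2 gave -1.07 with an adjusted p of 0.029 for it, and a limma fit of only the bladder and tracheal samples gave -1.09 with an adjusted p of 0.030. Against vagina the difference was -0.09 (SE 0.450, limma adjusted p = 0.90), with 17.2% of genes called, and it turned to 0.19 without the second vaginal sample before transplantation and to 0.03 without the second tracheal sample before it. Trachea exceeded whisker by 1.52 (SE 0.432, limma adjusted p = 0.012), with 13.2% of genes called, and this call was lost without the first tracheal sample before transplantation (limma adjusted p = 0.073).

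For Chst11 the change in trachea went the opposite way from that in vagina, with a difference of -2.38 (SE 0.372, limma adjusted p = 9.8e-05), and from that in thymus, with a difference of -2.07 (SE 0.354, limma adjusted p = 0.00023). Both calls held without any 1 sample of the groups compared, with adjusted p up to 0.0019 for vagina and 0.0041 for thymus. The differences from bladder, -0.33 (SE 0.349, limma adjusted p = 0.51), and from whisker, -0.23 (SE 0.348, limma adjusted p = 0.64), were not called. The standard errors leave room for a true difference in either direction. The fall of Chst11 in trachea was therefore not distinguishable in size from the smaller decreases measured in bladder and whisker.

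The 6 pairs among the other tissues were added after the values had been seen. Those with whisker use levels on which the study had listed both genes. The rise of Itgb8 in thymus exceeded the change in whisker by 3.61 (SE 0.372, limma adjusted p = 1.3e-06, 18.6% of genes called), and that in bladder exceeded it by 2.62 (SE 0.298, limma adjusted p = 2.6e-06, 21.3%). The vaginal change of Itgb8 exceeded that of whisker by 1.60 (SE 0.230, limma adjusted p = 6.5e-05, 11.5%) and differed from that of thymus by -2.003 (SE 0.394, limma adjusted p = 0.00061, 20.4%). The latter was -1.16 without the first and -2.80 without the second thymic sample before transplantation. Bladder exceeded vagina by 1.02 (SE 0.324, limma adjusted p = 0.015, 25.4%), just past 2-fold. This call was lost without bladder sample 1 before (0.78) or after transplantation (0.99), vaginal sample 1 before (0.71) or vaginal sample 2 after (0.95), and DESeq2 gave 1.00, just under 2-fold. The difference between bladder and thymus, -0.99 (SE 0.437, limma adjusted p = 0.072, 23.3%), was not called. For Chst11, vagina and thymus each differed from bladder and from whisker. The difference was -1.74 (SE 0.185) for bladder minus thymus, -2.05 (SE 0.218) for bladder minus vagina, 1.83 (SE 0.184) for thymus minus whisker and 2.15 (SE 0.217) for vagina minus whisker, with limma adjusted p of at most 1.5e-06. Bladder and whisker (0.10, SE 0.175) and vagina and thymus (0.31, SE 0.225) were not told apart.

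**Figure D3:**
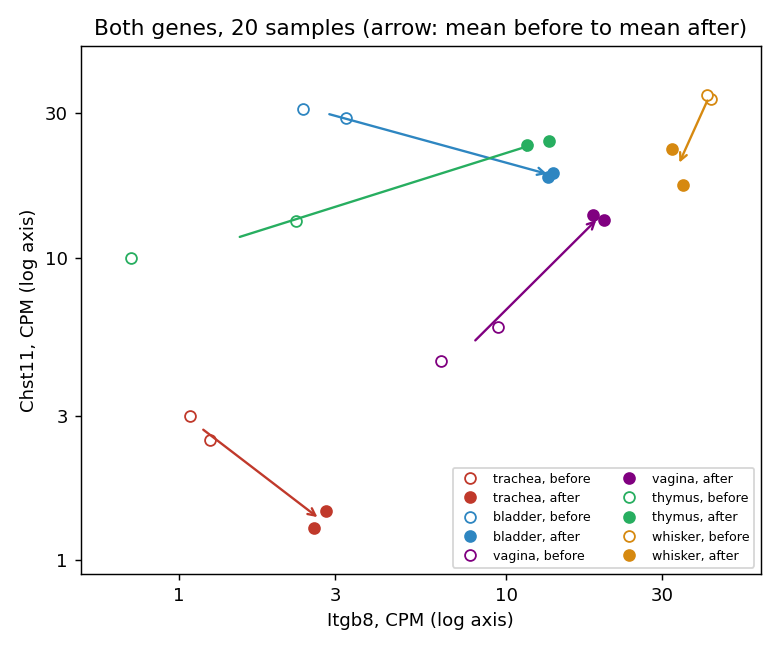
Level of Itgb8 against Chst11 in the 20 samples, both in CPM on log axes, open points before and filled points after transplantation, with an arrow from the mean before to the mean after for each tissue. After transplantation the 8 samples of the other tissues lie between 11.6 and 34.8 CPM of Itgb8 and between 13.3 and 24.2 CPM of Chst11, and the tracheal samples reach at most 2.82 and 1.46 CPM.

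Over all 20 samples the log2 CPM of Itgb8 and Chst11 had a Pearson r of 0.583, and of 0.310 over the 16 samples without trachea. Among the 10 samples after transplantation r was 0.875, and among the 8 of these that were not tracheal it was -0.231, so that the higher value rested on the tracheal samples. These points come in groups of 2 samples of the same tissue and round and are given as a description.

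Chst11 belongs to a family of sulfotransferases with related substrates. Of the other members measured here (Chst12, Chst14, Chst15 and Chst3), none was called lower in trachea than in the mean of the other tissues. Among all genes 6.77% were called lower before and 7.43% after transplantation, so no call among so few genes is not read as a trait of the family. Chst12, a further chondroitin 4-O-sulfotransferase, had 28.7 ± 0.450 CPM in trachea before transplantation, above bladder (14.5), vagina (15.6) and thymus (11.3) and below whisker (59.0 CPM). After transplantation it was at 32.3 CPM in trachea and between 16.1 and 25.5 CPM in the others. The difference of Chst12 from the mean of the others, 0.56 (SE 0.115) before and 0.70 (SE 0.113) after, was under 2-fold. Without whisker, where Chst12 was highest before transplantation, the difference was 1.09 (SE 0.123, limma adjusted p = 2.3e-06) before, which was called, and 0.82 after. Chst14, the dermatan 4-O-sulfotransferase, was high in trachea and low in whisker. In trachea Chst14 had 27.5 CPM before and 34.0 CPM after transplantation, and in whisker 1.32 and 1.05 CPM. It exceeded the mean of the 4 other tissues in trachea by 1.75 (SE 0.0946, limma adjusted p = 2.7e-10) before and 2.89 (SE 0.102, limma adjusted p = 2.4e-12) after. The first of these calls rested on whisker, since without it the difference was 0.86, under 2-fold, before and 2.18 after transplantation. Vagina and thymus, at 28.9 and 19.8 CPM before transplantation, were at a similar level of Chst14 to trachea, and after it they were at 19.5 and 7.65 CPM. Over 20 samples Chst11 and Chst14 had an r of -0.755, given as a description. The r of Chst11 was -0.115 with Chst12, -0.139 with Chst3 and -0.339 with Chst15. Chst14 had an r of -0.708 with Itgb8, so its opposite pattern was not particular to Chst11.

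The remaining sulfotransferases set trachea less apart. Chst15, which adds a 6-O sulfate to N-acetylgalactosamine 4-sulfate, differed in trachea from the mean of the others by 0.20 (SE 0.0991) before and -0.17 (SE 0.0958) after transplantation. Chst3, a chondroitin 6-O-sulfotransferase, differed by -0.19 (SE 0.124) and -0.54 (SE 0.0978). None of these passed the call, with limma adjusted p from 0.00022 for Chst3 after transplantation, which was under 2-fold, to 0.21. Chst3 rose in bladder by 4.24 (SE 0.212, limma adjusted p = 1.0e-10), from 1.70 to 30.3 CPM, a tissue in which Chst11 went from 30.0 to 18.8 CPM. Chst13 was not analysed here.

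**Figure D4:**
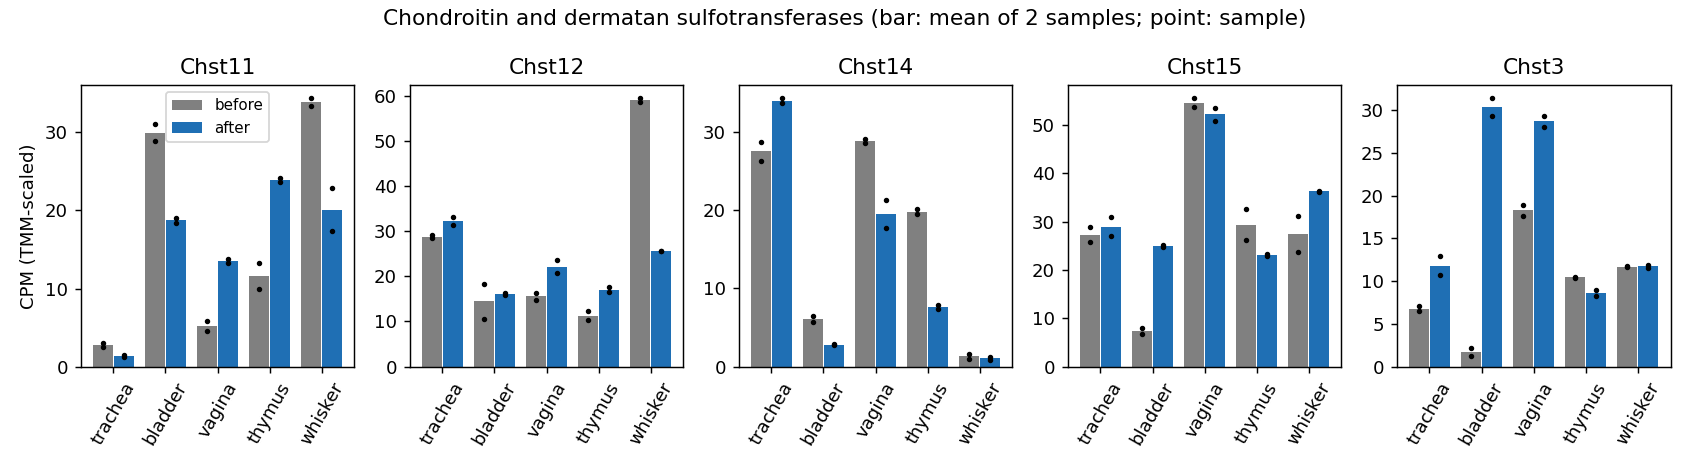
Level of Chst11, Chst12, Chst14, Chst15 and Chst3 in CPM by tissue of origin, grey before and blue after transplantation, with bars for the mean of 2 samples and points for the samples; each panel has its own axis from 0. Chst11 is lowest in trachea, whereas Chst14 is at 27.5 and 34.0 CPM in trachea and at 1.32 and 1.05 CPM in whisker.

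Of 50 further chondroitin sulfate genes listed, 13 were paired with an ID and tested. These are genes that the study had picked from these samples as differing from whisker, so the counts are not independent evidence. Before transplantation 3 of the 13 were called higher in trachea than in the mean of the other tissues and none lower, against 8.00% and 6.77% of all genes. Beside Chst14 these were the small leucine-rich proteoglycans Bgn (1.79, SE 0.223) and Dcn (1.74, SE 0.203), with limma adjusted p of at most 4.6e-06. Without whisker in the reference Chst12 took the place of Chst14 among the 3. Dcn is itself among the fibroblast markers given above, whose sum was highest in these tracheal samples. The median of the 13 was 0.20 on the log2 scale, against 0.00 over all genes.

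After transplantation 2 of the 13 were called higher in trachea, against 6.33% of all genes, and 2 lower, against 7.43%, with a median of 0.43. Chst14 and the dermatan epimerase homologue Dsel (1.34, SE 0.0966, limma adjusted p = 8.9e-09) were higher. The core proteins called lower were Cspg4 (NG2), with 2 reads in the tracheal samples together against 1661 in vagina, 421 in bladder, 126 in thymus and 11 in whisker, and Acan (aggrecan), with 0 reads against at most 32 in thymus. Both lay under the level of 3 reads per sample in trachea, so no fold is given. The calls of Dsel, with a difference of 0.80, and of Acan (limma adjusted p = 0.051) were lost without vagina in the reference, and neither edgeR nor DESeq2 called Acan.

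Among the 13 genes, 1 was called as risen and 4 as fallen in trachea after transplantation, against 4.39% and 8.04% of all genes. Dsel rose by 1.92 (SE 0.123, limma adjusted p = 6.1e-09), and Bgn, Dcn, Cspg4 and Acan fell. The falls of Bgn, by 1.799, and of Dcn, by 1.299, were seen together with that of the fibroblast markers, whose part in them was not tested. In bladder 4 rose (Chst3, Dsel, Chst15 and Cspg4), against 10.1% of all genes, and 5 fell (Bgn, Acan, Dcn, Chst14 and Chsy1), against 11.0%. In thymus 4 rose (Cspg4, Dsel, Bgn and Dcn), against 8.49%, and Chst14 fell by 1.38, against 6.89% of all genes. The sum of the fibroblast markers, Dcn among them, was higher in thymus after than before, at means of 36.2 and 19.5 CPM, and Chst11 rose there as well. In vagina Cspg4 rose, against 4.25%, and Dsel fell by 2.03, against 7.53%. In whisker Chst12, Cspg4 and Acan fell, against 3.83%, and none rose, against 2.15%. Some of these falls rested on few reads in the samples of a group together. Acan went from 57 reads to 1 in bladder, from 12 to 0 in trachea and from 16 to 1 in whisker. Cspg4 went from 19 reads to 2 in trachea and from 63 to 11 in whisker.

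The genes through which integrin β8 acts could be followed only in part. The other integrin subunits, Itgav included, and the genes of TGF-β ligands, latency proteins and receptors were not analysed here. Of 16 listed genes that TGF-β is known to induce, 6 were paired and tested, again from the lists that the study had chosen on these samples. Tgfbi, a secreted matrix protein named after its induction by TGF-β, was lower in trachea than in the mean of the others by a difference of -1.53 (SE 0.141, limma adjusted p = 1.5e-07) before and -1.19 (SE 0.123, limma adjusted p = 6.0e-07) after transplantation. Its level ran from 30.9 to 68.5 CPM in trachea, from 12.2 to 69.4 CPM in bladder and from 405 to 388 CPM in whisker. Without whisker in the reference the differences were -0.80 and -0.75, under 2-fold, and Tgfbi was not called in either round. Tgfbi rose in trachea by 1.15 (SE 0.168, limma adjusted p = 5.1e-05) and in bladder by 2.60 (SE 0.202, limma adjusted p = 1.6e-08). In vagina and thymus, where Itgb8 rose too, Tgfbi changed by 0.07 (SE 0.147) and 0.64 (SE 0.149) and was not called. With Itgb8, Tgfbi had an r of 0.751 over 20 samples, at rank 626 of 13301 genes, as a description. For the other targets the r with Itgb8 was 0.494 (Bhlhe40), 0.205 (Col4a2), -0.0325 (Col4a1), -0.369 (Cdkn1a) and -0.586 (Cdkn2b).

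The collagen IV chains Col4a1 and Col4a2 differed between the rounds. Before transplantation both were higher in trachea than in the mean of the others, by 1.55 (SE 0.110) and 1.28 (SE 0.118), and after it Col4a2 was lower, with a difference of -1.11 (SE 0.164), each at a limma adjusted p of at most 3.0e-05. Without vagina in the reference, Col4a2 was not called in either round. In trachea Col4a1 fell by 2.01 and Col4a2 fell by 2.07, while the fibroblast markers fell there too. The changes of Col4a1 and Col4a2 were -2.98 and -2.71 in bladder, 2.88 and 3.47 in vagina and 1.32 and 1.68 in thymus, all called. Itgb8 rose in all of these tissues. Cdkn2b, Cdkn1a and Bhlhe40 were not called in trachea against the others in either round. Of the 6 genes, 2 were called higher and 1 lower in trachea before transplantation, against 8.00% and 6.77% of all genes. After it none was called higher and 2 were called lower, against 6.33% and 7.43%. The median of the 6 genes was 0.04 before and -0.48 after transplantation, against 0.00 over all genes in both rounds.

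**Figure D5:**
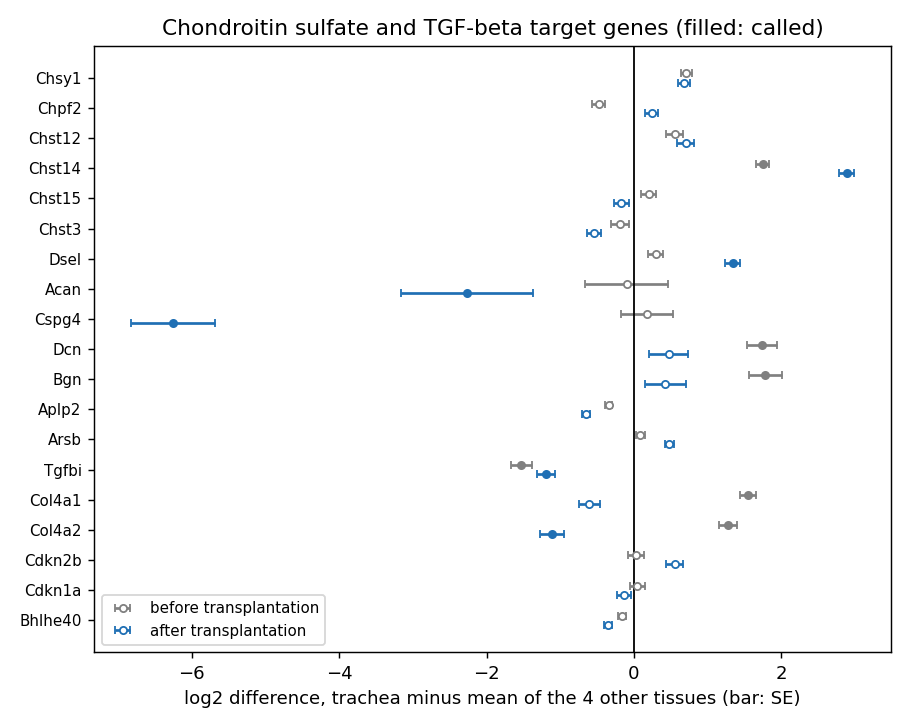
Difference between trachea and the mean of the 4 other tissues on the log2 scale, with the standard error as bars, for the 13 chondroitin sulfate genes (top, Chsy1 to Arsb) and the 6 TGF-β target genes tested (bottom), grey before and blue after transplantation, filled where called. Chst14 lies above 0 in both rounds and Bgn and Dcn do so before transplantation. The points of Cspg4 and Acan after transplantation rest on 2 and 0 reads in trachea.

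The genes with the pattern most like each of the 2 were sought among the 1922 genes with a usable symbol, by Pearson r of log2 CPM over 20 samples. They are named as a description. The symbols came from the study's lists of genes that differ from whisker, which limits which patterns could be found. For Itgb8 these were Chdh (choline dehydrogenase, r = 0.949), Atp1b3 (a subunit of the sodium-potassium pump, 0.937), Krt10 (a keratin of differentiating epidermis, 0.933), Ctnnal1 (0.927) and Cbs (cystathionine beta-synthase, 0.926). Chdh stood first among all 13301 other genes, and the fifth, Cbs, stood at rank 10. Chdh had 34.2 CPM in whisker and 0.625 CPM in trachea before transplantation, and 39.3 and 2.45 CPM after it. Krt10 had 1530 CPM in whisker and 1.08 CPM in trachea before, and after transplantation 869 CPM in whisker, 329 in vagina, 229 in bladder, 13.2 in thymus and 1.11 CPM in trachea.

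For Chst11 the likeness to the genes that could be named was weaker. The nearest genes with a symbol were Esyt3 (0.869), Casd1 (a sialic acid O-acetyltransferase, 0.863), Arhgap28 (0.856), Ank3 (ankyrin G, 0.852) and Bcl2l11 (the pro-apoptotic protein Bim, 0.846), at ranks 10 to 24 of 13301. The genes nearer to Chst11 than Esyt3 had no usable symbol and are not shown. Bcl2l11 had 54.7 CPM in trachea and between 111 and 177 CPM in the others before transplantation, and 65.8 CPM against 105 to 190 CPM after it. Arhgap28 had 2.06 CPM in trachea before and 0.0365 CPM after.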

How the data were processed

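RNA-Seq was performed by the authors on 20 samples. Per the labels and the study's methods, reads from stranded mRNA libraries were trimmed with cutadapt 1.8, aligned to Rnor_6.0 with STAR 2.5.2b and summarised per Ensembl gene with HTSeq 0.6.1; the deposited values are raw read counts per gene, 1 file per sample. The strand setting of the counting is not given in the sources used here. Summary lines that name no gene (11601894 to 19374286 reads not uniquely aligned per sample, others for no feature or an ambiguous one) were left out. Symbols came from 2311 ID and symbol pairs in the study's supplementary tables, 1 of which is shortened; no fold change or p-value was taken from them.

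A gene entered the fit if any sample reached 1 CPM, and all were fitted with limma 3.58.1 voom (TMM factors from edgeR 4.0.16, R 4.3.3), with 1 mean for each of 10 groups and 10 residual degrees of freedom. The fit was tested on simulated data. Alternatives were edgeR's quasi-likelihood test, DESeq2 1.42.0, its size factors, other filters, a replicate block, fewer samples and each sample left out. Replicates differed by more than counting noise in all 10 groups (mean chi-square per gene 2.48 to 42.9 on 1 degree of freedom). The 2 genes and the lists were chosen with earlier results of these data known. Named genes were the 2 genes, the Chst family, up to 4 called genes per list with the largest difference or change, label markers, and the 5 genes with a symbol and the highest Pearson r (log2 CPM, prior count 2).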

Additional observations from a re-analysis of the deposited data

Results flagged for a closer look

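For Itgb8 the change after transplantation differed between tissues, by the test of the difference itself, in 7 of 10 pairs of tissues. On the log2 scale the difference was -2.09 for trachea minus thymus and 1.52 for trachea minus whisker. It was 3.61 for thymus, 2.62 for bladder and 1.60 for vagina, each minus whisker. It was -2.003 for vagina minus thymus and 1.02 for bladder minus vagina, a call that DESeq2 and 4 of 8 fits without a sample did not make. Whisker takes part in 3 of these tests besides that with trachea and was a clone and its subclone.

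For Chst11 the change differed in 6 of 10 pairs. The difference was -2.38 for trachea minus vagina and -2.07 for trachea minus thymus. It was -1.74 for bladder minus thymus, -2.05 for bladder minus vagina, 1.83 for thymus minus whisker and 2.15 for vagina minus whisker. The recovered vaginal samples, which had lost most of their Esr1 and Krt4, take part in 3 of these 6, and the other 3 do not use them. The pairs share samples and are not independent of each other, and those with trachea use the levels that chose the 2 genes. Those with whisker use levels on which the study had listed both. With 2 samples a group, no sample could be tested as standing apart from its group.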

How the results depend on the processing

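Of 470 values recomputed for Itgb8 and Chst11 under another setting, 445 kept their direction and their side of the threshold (or, for the levels in trachea, moved by less than the spread between replicates). Of 78 counts of called list genes, 75 stayed within 1.5 times, although an equal count can hold other genes, as for Chst12 and Chst14 without whisker. Leaving out each sample in turn gave changes of 1.09 to 1.304 for Itgb8 in trachea, -1.14 to -0.88 for Chst11 in trachea and 0.84 to 1.25 for Chst11 in thymus, each with calls lost. For the differences of Itgb8 it gave -0.38 to 0.19 for trachea minus vagina, 1.41 to 1.63 for trachea minus whisker, -1.78 to -0.14 for bladder minus thymus and 0.71 to 1.29 for bladder minus vagina. For Chst11 it gave -0.11 to 0.29 for bladder minus whisker. The call of Itgb8 for bladder minus vagina (1.02) was lost without bladder sample 1 before or after transplantation, vaginal sample 1 before or vaginal sample 2 after, and fell under 2-fold with DESeq2 (1.00). That for bladder minus thymus was gained without thymic sample 2 or bladder sample 1 before transplantation. The difference of Itgb8 for trachea minus bladder was called by DESeq2 (-1.07) and with only the samples of both tissues (-1.09). The cause was not tested. Without whisker in the reference, trachea before transplantation differed by -1.37 for Itgb8 and -2.14 for Chst11, and without vagina, a setting chosen after seeing the data, Chst11 differed by -3.04. After transplantation the called TGF-β targets went from 2 of 6 to 1 without whisker (Tgfbi lost) and to 1 without vagina (Col4a2 lost), and the called chondroitin genes from 4 of 13 to 2 without vagina. With all 4 tissues in the reference, 6.33% of all genes were called higher in trachea and 7.43% lower. The shares for the smaller references are not given here.

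The labels repeat replicate numbers across groups. Over both rounds, samples with the same number showed little shared deviation (45 pairs of groups, r from -0.12 to 0.24, median 0.02, 10 of them over 0.1). Between recovered groups r was 0.0023 for bladder with whisker and from 0.0866 to 0.155 for the other pairs. A weak shared deviation in that round can therefore not be set aside. The numbers were taken to name samples in the main fit, and the replicate block was an alternative. With the replicate block the call for bladder minus vagina of Itgb8 was lost (0.99), and no other call of either gene changed. In trachea Itgb8 then rose by 1.19 and Chst11 fell by 1.00. The tracheal calls rest on 28 to 78 reads per sample, which limits their precision.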
